A study of Mus musculus with 6 samples.

Results

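The genes of Wnt signaling were compared between gp38+ CD31+ (double-positive) and CD31+ endothelial cells of mouse lymph nodes (LN). They were taken by symbol: every numbered Wnt, Fzd, Sfrp, Dkk and Rspo gene, together with Lrp5, Lrp6, Axin1, Axin2, Lef1, Tcf7l1, Tcf7l2, Lgr5, Znrf3 and Rnf43. This rule found 101 probe sets of 52 genes, of 18193 genes that had a probe set of their own, and for each gene the probe set with the highest mean was used. Tcf7, also named in the rule, was not analysed here. The 52 consisted of 19 Wnt ligands, 10 Frizzled receptors, the co-receptors Lrp5 and Lrp6, 8 secreted inhibitors, 7 genes of the R-spondin axis and 5 intracellular genes. The last of the 52 was Fzd10os, a transcript from the strand opposite Fzd10 that met the rule by its name.

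Stromal cells were prepared by digestion of pooled skin-draining and mesenteric LN of C57BL/6 mice aged 6 weeks, depleted of CD45+ cells and sorted by gp38 and CD31. RNA (20 ng per sample) was amplified in 2 linear rounds and hybridized to Affymetrix mouse genome arrays, 3 for each group. Double-positive cells carry gp38, the product of Pdpn, together with CD31, and the study's gates take them as lymphatic endothelium. The CD31+ cells of the study's gates lack gp38 and are taken as blood endothelium. The labels of the arrays combine a cell type word with a gate word, and under the gates given in the design text these words oppose each other: the double-positive arrays are also labelled blood endothelial cells (BEC), and the CD31+ arrays lymphatic endothelial cells (LEC). The arrays are named here by the gate word. Naming them by the cell type word would turn the sign of every difference below. Pooled nodes do not separate single animals. The design text calls the samples paired, and same-numbered arrays of the groups deviated together. What the replicates within a group had in common before the sort is not given in the sources used here. Standard errors and intervals below come from fits that did not use the pairing. The same holds for p-values, unless a block for the replicate number is named.

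The marker genes were read in the arrays as named by gate. Pdpn had log2 values of 8.32, 7.33 and 7.28 in double-positive cells and 3.69, 3.75 and 3.29 in CD31+ cells. Of 11 lymphatic markers, limma called 8 higher and 0 lower in double-positive cells, and of 10 blood endothelial markers 0 higher and 6 lower. Prox1, the factor that sets lymphatic identity, did not pass, with 6.73, 6.56 and 9.20 in double-positive cells and 7.32, 6.92 and 8.04 in CD31+ cells. Pecam1, which encodes CD31, was near the lowest measurable value, with 2.39 to 2.43 in double-positive cells and 2.43 to 2.59 in CD31+ cells, so its probe set does not check the gate. The 10 markers of fibroblastic reticular cells went both ways: over all probe sets 2 were called higher (Postn by 4.60 and Thy1 by 3.03) and 0 lower, and with a filter on dim probe sets, defined below, 2 were higher and 4 lower (Pdgfrb at -2.92, Col1a2 at -3.11, Col3a1 at -3.15 and Cxcl13 at -2.00). The groups did not overlap for these 4 and for Pdgfra (-1.41), with CD31+ arrays on top. The summed linear level of all 10 was 2160 to 3770 in double-positive cells and 353 to 964 in CD31+ cells, and without Postn it was 173 to 263 in double-positive cells and 254 to 866 in CD31+ cells, while Col1a1, a defining marker, stayed between 2.39 and 2.86 on the log2 scale. Of 6 pericyte and smooth muscle markers 0 were called over all probe sets, and Acta2 was lower with the filter (-2.34, limma adjusted p = 0.0109). Acta2, Pdgfrb and Col1a2 passed the filter only through the CD31+ arrays, and Thy1 only through the double-positive arrays. Col3a1 and Cxcl13 reached 5 on 4 arrays each, and their double-positive arrays alone would not have met the filter. The pericyte sum was 174 to 249 in double-positive cells and 128 to 521 in CD31+ cells. Of 7 pan-endothelial markers 0 were called over all probe sets. With the filter Robo4 was lower (-1.83, limma adjusted p = 0.00301), and it passed the filter only through the CD31+ arrays. For Robo4 and Esam (-1.10) the groups did not overlap, with CD31+ arrays on top. Ptprc, which encodes CD45, had 2.53, 2.74 and 2.74 in double-positive cells and 4.37, 2.77 and 4.03 in CD31+ cells, so the groups did not overlap (-1.05, limma adjusted p = 0.659). Of 7 T cell markers, 0 were called over all probe sets, and 5 stayed below 3 on all arrays, including Cd3e. With the filter Cd8a was lower (-1.07, limma adjusted p = 0.0345), with no overlap of the groups. The sum of the 7 was 253 to 491 in double-positive cells and 685 to 815 in CD31+ cells, mostly from Cd8a. The B cell sum was 24.7 to 25.3 in double-positive cells and 24.7 to 26.5 in CD31+ cells. The myeloid sum was 31.0 to 33.4 in double-positive cells and 30.2 to 38.1 in CD31+ cells. The part of other cells in the Wnt results was not tested. In sorted bulk cells, a smaller share of cells with a transcript and less transcript per cell cannot be told apart.

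Wnt proteins are secreted glycoproteins that carry a lipid and act over short distances. They bind Frizzled receptors, which span the membrane, together with a co-receptor. In the β-catenin branch the co-receptor is Lrp5 or Lrp6, and binding stops the destruction complex around Axin and Apc from marking β-catenin for degradation, so that β-catenin reaches Tcf and Lef factors on DNA. Other branches act through small GTPases, calcium or planar cell polarity and do not need β-catenin. Sfrp proteins bind Wnts, Dkk proteins bind the Lrp co-receptors, and R-spondins with Lgr receptors protect Frizzled receptors from removal by the ubiquitin ligases Znrf3 and Rnf43. In endothelium, Frizzled 4 is known for the growth and barrier of retinal and brain vessels, and β-catenin signaling and planar polarity genes for the formation of lymphatic valves.

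The values were GCRMA log2 abundances with a floor of 2.39, a background-corrected level below which the arrays do not separate samples. Differences are log2, double positive minus CD31+, between the means of 3 arrays. Over bright probe sets the double-positive arrays stood higher as a whole, with a median difference of 0.75 over 5764 probe sets whose mean reached 5, and centring the arrays lowers every difference by 0.68. A share of 13.8% to 14.7% of probe sets reached 5 in double-positive cells, against 10.7% to 12.6% in CD31+ cells. Precision is limited by the 3 arrays a group: a two-sided exact permutation test of a single value could not reach a p below 0.1.

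Most Wnt genes gave little or no signal in either population. Of the 52 genes, 29 stayed below a log2 value of 3 on all 6 arrays and 21 varied by less than 0.1 over the arrays (40.4%, against 30.9% of all genes). A log2 value of 5 was reached on at least 1 array by 9 of them (17.3%, against 28.3% of all genes). The median difference was 0.00 over the 52 genes and 0.00 over all genes. Of the genes well above the floor, 3 passed at least 1 of the fits given next: the ligand Wnt5b and the receptor Fzd6 were higher in double-positive cells, and the receptor Fzd4 was lower.

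limma over all probe sets at 5% FDR called 1 Wnt gene higher, Wnt5b (1.92% of 52), and 0 lower, where 0.879% of all genes were called higher and 0.176% lower. Before adjustment, at a p under 0.05, 6 were higher (11.5%) and 1 lower (1.92%), near the 12.5% and 2.12% of all genes. The arrays of the groups did not overlap for 9 genes that were higher (17.3%, against 16.9% of all genes) and 2 that were lower (3.85%, against 3.42%). A filter that kept probe sets reaching a log2 value of 5 on at least 3 arrays left 5 Wnt genes, of which 2 were called higher (Wnt5b and Fzd6) and 1 lower (Fzd4). Of the 4207 genes it kept, 33.2% were called higher and 4.11% lower. Same-numbered arrays deviated together, so the number was also fitted as a block. With this block limma called 0 Wnt genes over all probe sets, while 0.011% of all genes were higher and 0.0% lower. Before adjustment, at a p under 0.05, this fit had 4 Wnt genes higher (7.69%, against 12.6% of all genes) and 1 lower (1.92%, against 2.06%). With the block and the filter, Wnt5b and Fzd6 were again called higher and Fzd4 lower, where 46.4% and 4.99% of the genes kept were called. The same 3 were called when the filtered arrays were centred, where 12.6% of the genes kept were higher and 9.63% lower.

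**Figure D1:**
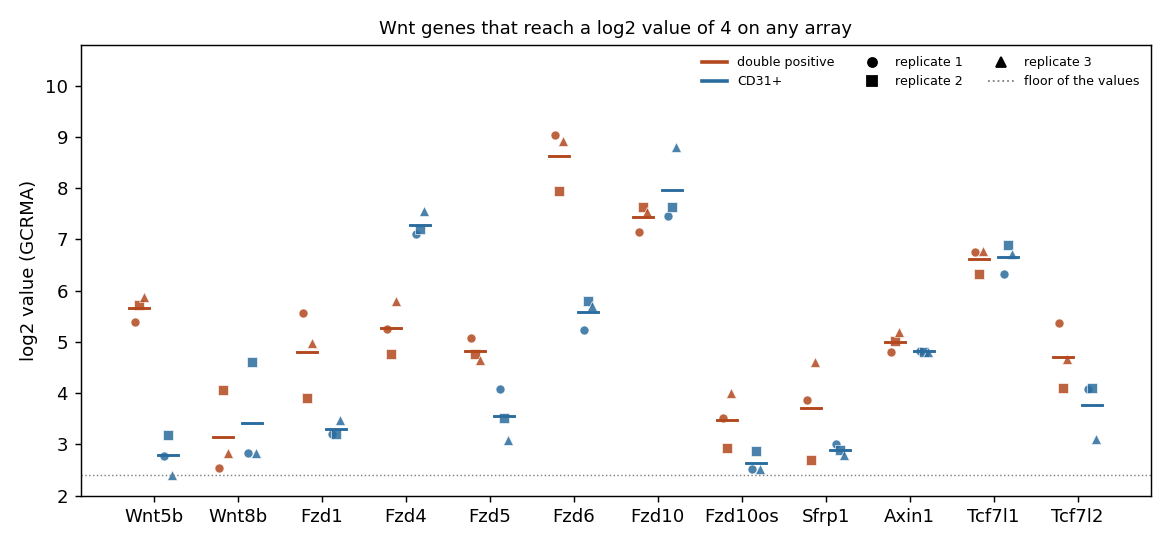
Log2 GCRMA values (vertical axis) of the 12 Wnt genes that reached 4 on any array, with double-positive arrays in orange on the left and CD31+ arrays in blue on the right of each pair. Points are single arrays, with the replicate number as shape, bars are means of 3, and the dotted line is the floor. The points of Wnt5b and Fzd6 lie apart with double-positive arrays on top, and those of Fzd4 lie apart with CD31+ arrays on top. The groups also do not overlap for Fzd1, Fzd5, Fzd10os and Tcf7l2, with double-positive arrays on top. Without overlap, 16.9% of all genes were higher and 3.42% lower.

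Among the ligands Wnt5b stood alone. Wnt5b encodes a Wnt known mostly for signaling without β-catenin. Its probe set 1439373_x_at had log2 values of 5.39, 5.72 and 5.88 in double-positive cells, against 2.78, 3.18 and 2.39 in CD31+ cells, where the third array was at the floor. All double-positive arrays exceeded all CD31+ arrays by more than 2 on the log2 scale. The means were 5.66 ± 0.25 in double-positive cells and 2.78 ± 0.39 in CD31+ cells (SD, n = 3 each), a difference of 2.88 or 7.36-fold (standard error 0.256, 95% interval 2.19 to 3.57, limma adjusted p = 0.0441). Over all probe sets this call was lost with any 1 array left out, where the limma adjusted p was 0.0815 to 0.179, and with the replicate block it was 0.241. With the filter it was 0.000262 (0.000454 to 0.00318 with 1 array left out), and with the filter and the block 2.65e-05. Wnt5b passed the filter only through the double-positive arrays. The filter was set on all 6 arrays, and without a double-positive array Wnt5b would not have met it. The other probe set, 1422602_a_at, stayed near the floor, with 2.47, 2.60 and 2.79 in double-positive cells and 2.47 on each CD31+ array, a difference of 0.15 (limma adjusted p = 0.659). Probe sets whose ID ends in _x_at can share probes with other transcripts, and 4 of the 101 Wnt probe sets end so.

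RefSeq lists 3 start sites for Wnt5b on the minus strand of chromosome 6 in GRCm38.p6. Windows of 250 bases before and 50 after a start were searched for CTTTGA on both strands, the core recognized by Tcf and Lef factors, since Wnt5b was the only ligand called and Fzd4 the receptor that was lower. Of the 52 genes, 32 had such windows in the table used here, and 5 of these held the core (15.6%, against 18.2% of all genes in the table): Dkk1, Fzd1, Lef1, Wnt11 and Wnt5b. In Wnt5b it lay in the window of the most downstream start, chr6:119449337-119449636, from position -71 to -66 relative to the start, on the strand of the gene. The most upstream window, chr6:119544298-119544597, the middle one, chr6:119467162-119467461, and the Fzd4 window, chr7:89404116-89404415 on the plus strand, held none. Below, the core is in capitals and each run reads from 5′ to 3′ on the strand of the gene.
Wnt5b most downstream start: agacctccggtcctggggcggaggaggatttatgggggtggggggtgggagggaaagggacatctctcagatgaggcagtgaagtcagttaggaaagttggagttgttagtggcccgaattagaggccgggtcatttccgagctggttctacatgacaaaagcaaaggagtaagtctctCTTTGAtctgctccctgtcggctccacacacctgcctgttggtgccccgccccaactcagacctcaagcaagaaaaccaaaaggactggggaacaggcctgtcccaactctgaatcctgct
Wnt5b most upstream start: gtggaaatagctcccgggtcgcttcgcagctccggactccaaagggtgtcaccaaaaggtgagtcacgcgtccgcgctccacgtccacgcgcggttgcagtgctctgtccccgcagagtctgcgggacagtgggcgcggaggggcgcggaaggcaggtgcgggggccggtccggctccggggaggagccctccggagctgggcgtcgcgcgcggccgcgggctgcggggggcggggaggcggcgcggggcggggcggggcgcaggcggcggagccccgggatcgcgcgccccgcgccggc
Fzd4: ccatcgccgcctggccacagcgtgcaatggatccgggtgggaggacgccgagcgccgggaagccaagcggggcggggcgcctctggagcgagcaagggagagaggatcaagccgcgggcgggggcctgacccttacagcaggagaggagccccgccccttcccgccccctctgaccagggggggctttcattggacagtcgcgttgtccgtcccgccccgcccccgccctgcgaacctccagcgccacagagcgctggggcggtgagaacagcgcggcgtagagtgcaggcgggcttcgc
The Wnt5b windows differ in base composition. The most upstream one has 47 CpG pairs and 78.0% G or C, the middle one 4 pairs and 53.0%, the downstream one with the core 7 pairs and 55.0%, and the Fzd4 window 32 pairs and 72.7%. The arrays do not show which start was used.

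Of the other 18 ligands, none passed 5% FDR. Over the 19 ligands, 15 stayed below 3 on all arrays, among them Wnt1 and Wnt3a, the ligands best known for signaling through β-catenin, and Wnt2, Wnt4 and Wnt5a. For 10 of them the arrays differed by less than 0.1. Wnt11, a ligand known for β-catenin-independent signaling, had 3.26, 3.61 and 3.31 in double-positive cells and 3.29 on each CD31+ array, so the groups overlapped. Wnt9a, known in developing joints and liver, had 3.13, 2.58 and 2.92 in double-positive cells and 2.58, 2.39 and 2.58 in CD31+ cells, a difference of 0.35 (limma adjusted p = 0.659).

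Wnt8b, a ligand of the developing forebrain, was the only other ligand to reach 4. It had 2.54, 4.05 and 2.83 in double-positive cells and 2.83, 4.61 and 2.83 in CD31+ cells. In both groups the high array was the one numbered 2. The B1 repeat control of the array was also bright there, at 12.84 on the double-positive and 12.28 on the CD31+ array against at most 8.11 on the others, and its part in the Wnt8b values was not tested. The difference of Wnt8b was -0.28 (95% interval -2.23 to 1.66, limma adjusted p = 0.996).

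Of the 9 genes that reached 5 on any array, 5 were Frizzled receptors. Of the 10 receptors 1 stayed below 3 on all arrays, and their differences ran from -2.01 to 3.06. Fzd6 was the highest of these differences. Fzd6 encodes a receptor known for planar polarity, as in the orientation of hair follicles of the mouse. Its probe set 1417301_at had 9.04, 7.95 and 8.92 in double-positive cells, against 5.23, 5.80 and 5.70 in CD31+ cells. The lowest double-positive array exceeded the highest CD31+ array by over 2 on the log2 scale. Means were 8.63 ± 0.60 in double-positive cells and 5.58 ± 0.30 in CD31+ cells (SD, n = 3 each), a difference of 3.06 or 8.32-fold (standard error 0.370, 95% interval 2.06 to 4.05). Over all probe sets limma gave an adjusted p of 0.0720, which misses 5% FDR, and 0.325 with the replicate block. With the filter the adjusted p was 0.000422 (0.00102 to 0.00512 with 1 array left out), and with the filter and the block 4.04e-05. After centring the difference was 2.38 (limma adjusted p = 0.000804 with the filter). All 6 arrays of this probe set were above 5, so Fzd6 passed the filter through both groups. A second probe set, 1448662_at, differed by 0.22 with all arrays below 4, and the third, 1458904_at, was at the floor on all 6 arrays.

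Fzd4 went the other way. Fzd4 encodes a receptor of endothelium that binds Norrin, a ligand that is not a Wnt, as well as Wnts. Its probe set 1434756_at had 5.26, 4.77 and 5.80 in double-positive cells, against 7.11, 7.20 and 7.55 in CD31+ cells, with no overlap. The means were 5.28 ± 0.51 in double-positive cells and 7.29 ± 0.23 in CD31+ cells (SD, n = 3 each), a difference of -2.01, or 4.02-fold lower (standard error 0.312, 95% interval -2.85 to -1.17). The limma adjusted p was 0.118 over all probe sets, 0.241 with the block, 0.00257 with the filter (0.00541 to 0.0183 with 1 array left out) and 0.000286 with the filter and the block. Fzd4 reached 5 on 5 arrays, all but the second double-positive one. Its double-positive arrays alone would not have met the filter. Centring took the difference to -2.69 (limma adjusted p = 0.00042 with the filter). The probe set 1419301_at gave the same order, with 4.12, 3.74 and 3.70 in double-positive cells and 5.06, 5.28 and 4.38 in CD31+ cells, a difference of -1.05 (limma adjusted p = 0.342). The probe set 1449416_at was near the floor on all arrays.

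Genes that work with Frizzled 4 at the membrane were read for the same arrays. Ndp, which encodes Norrin, had means of 2.41 in double-positive cells and 2.39 in CD31+ cells. Tspan12, the tetraspanin partner of the Norrin receptor, had 3.43 in double-positive cells and 3.42 in CD31+ cells, a difference of 0.01. Lrp5, the co-receptor of this complex, was at 2.39 on all 6 arrays. The probe sets of these genes, which lay low on all arrays, did not show the order seen for Fzd4.

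**Figure D2:**
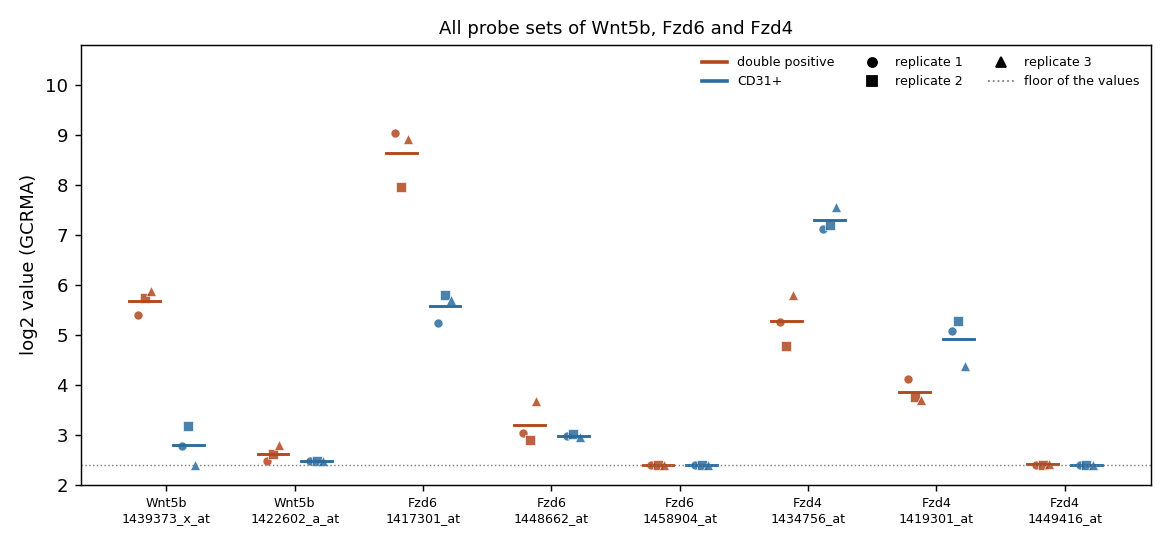
Log2 GCRMA values (vertical axis) of all probe sets of Wnt5b, Fzd6 and Fzd4, with double-positive arrays in orange on the left and CD31+ arrays in blue on the right. Points are single arrays, bars are means of 3 and the dotted line is the floor. Beside the probe set read for each gene, 1419301_at of Fzd4 shows the same order, and the other probe sets lie below 4.

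Fzd10 was measured well above the floor in both populations but did not pass. It encodes a receptor studied mostly in the nervous system and in tumors. The arrays had 7.14, 7.64 and 7.53 in double-positive cells and 7.46, 7.63 and 8.80 in CD31+ cells, where the third array stood above the rest and the groups overlapped. Means were 7.44 ± 0.26 in double-positive cells and 7.96 ± 0.73 in CD31+ cells (SD, n = 3 each), a difference of -0.52 (95% interval -1.68 to 0.63, limma adjusted p = 0.659, 0.296 with the filter). The interval does not exclude a change in either direction. A second probe set of Fzd10 was near the floor on all arrays. Fzd10os had 3.51, 2.94 and 4.01 in double-positive cells and 2.53, 2.87 and 2.53 in CD31+ cells, a difference of 0.84 (limma adjusted p = 0.562).

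Fzd5, Fzd1 and Fzd7 were higher in each pair of same-numbered arrays without passing the test, and were picked out after their values were seen. Fzd5, known for vessels of the yolk sac and placenta in the mouse, had 5.07, 4.76 and 4.65 in double-positive cells, against 4.08, 3.51 and 3.09 in CD31+ cells. Its difference was 1.27 (standard error 0.300, limma adjusted p = 0.257). Fzd1, a receptor active in both branches, had 5.56, 3.90 and 4.98 in double-positive cells, against 3.21, 3.21 and 3.48 in CD31+ cells. Its difference was 1.51 (limma adjusted p = 0.429), with the double-positive arrays spread over more than 1 on the log2 scale. Fzd7, a receptor of stem and progenitor cells, had 3.58, 3.60 and 3.45 in double-positive cells, against 2.99, 2.51 and 3.14 in CD31+ cells. Its difference was 0.66 (limma adjusted p = 0.353) and -0.01 after centring. A second probe set of each of these genes was near the floor, with differences of 0.0077 for Fzd5, 0.00 for Fzd1 and 0.00 for Fzd7. Fzd2 was the other receptor beside Fzd4 whose groups did not overlap with CD31+ arrays on top, at 2.60, 2.60 and 2.62 in double-positive cells and 2.64, 2.76 and 3.58 in CD31+ cells, all in the low range. Fzd8 was at 3.61 to 3.79 in double-positive cells and 3.79 on each CD31+ array. Fzd3 and Fzd9 were above 2.5 on 1 CD31+ array each, at 3.27 and 2.89. The probe sets of the co-receptors gave almost no signal: Lrp6 was at 2.73 on the double-positive arrays and at 2.73, 3.01 and 2.73 on the CD31+ arrays.

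**Figure D3:**
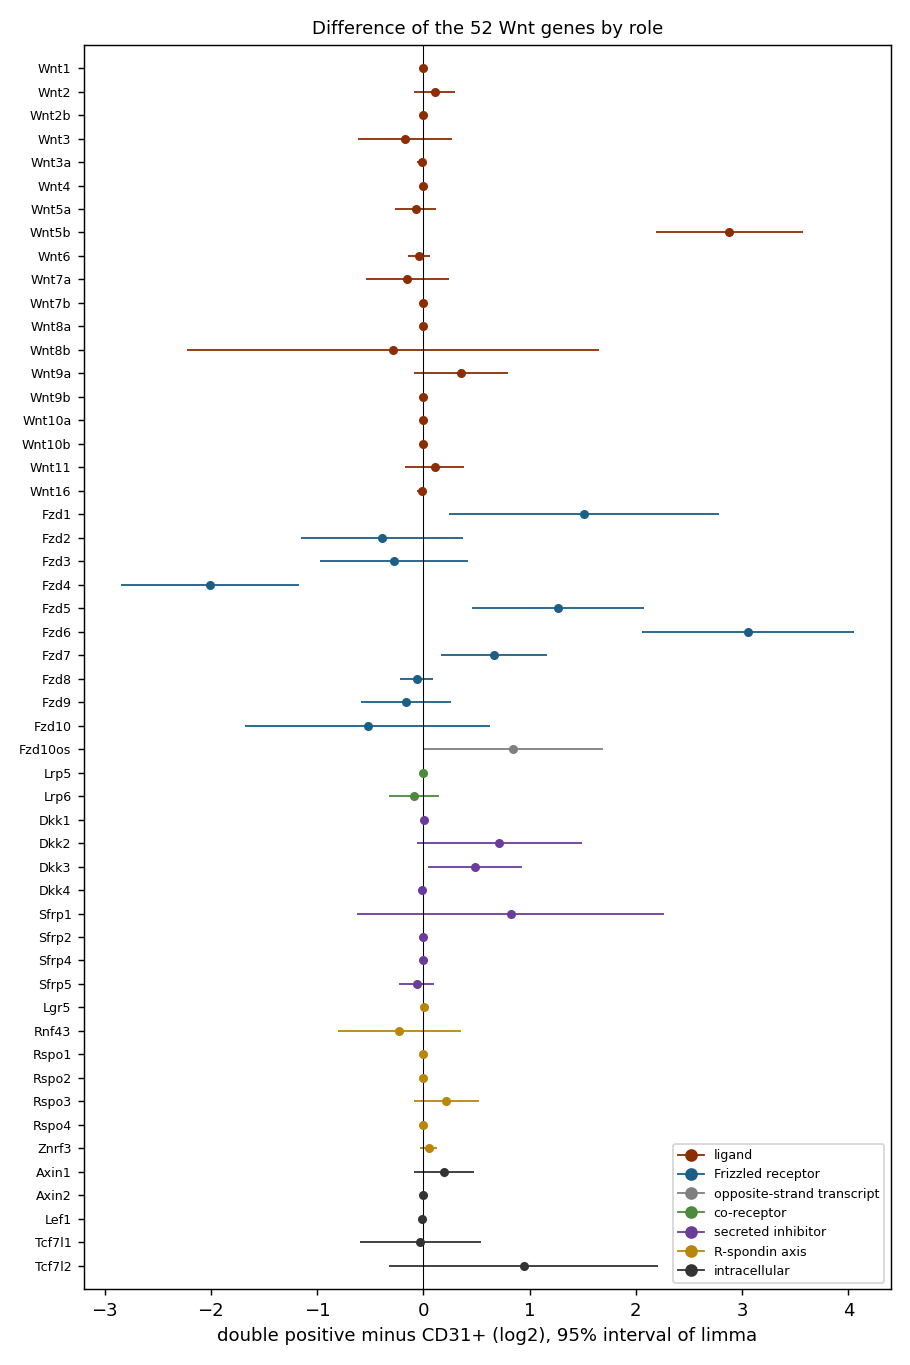
Difference of each of the 52 Wnt genes, double positive minus CD31+ (horizontal axis, log2), with points for the limma estimate, lines for its 95% interval and colors for the role of the gene. Wnt5b at 2.88, Fzd6 at 3.06 and Fzd4 at -2.01 lie farthest from 0, and 46 genes lie between -0.39 and 1.51 beside the 6 described with each array.

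None of the 8 secreted inhibitors passed 5% FDR. Of these, 5 stayed below 3 on all arrays, including Dkk1, Sfrp2, Sfrp4 and Sfrp5, and none reached 5. The remaining 3 genes were picked out after their values were seen. Dkk2, an inhibitor that binds Lrp5 and Lrp6, had 3.84, 3.65 and 3.84 in double-positive cells, against 2.68, 2.87 and 3.64 in CD31+ cells. The nearest arrays of the groups, at 3.65 and 3.64, were almost level, and the difference was 0.72 (limma adjusted p = 0.620). Dkk3, a member of the family that does not act on the Lrp co-receptors, had 2.74, 3.24 and 3.18 in double-positive cells, against 2.63, 2.63 and 2.43 in CD31+ cells, a difference of 0.49 (limma adjusted p = 0.489). Sfrp1, a soluble relative of the Frizzled receptors, had 3.86, 2.69 and 4.61 in double-positive cells and 3.01, 2.88 and 2.80 in CD31+ cells. The second double-positive array lay below all CD31+ arrays, and the difference was 0.82 (95% interval -0.62 to 2.27, limma adjusted p = 0.659).

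In the R-spondin axis none of the 7 genes passed 5% FDR, the highest value on any array was 3.09, and the differences ran from -0.23 to 0.22. Rspo1, Rspo2 and Rspo4, of the secreted R-spondins, and Lgr5, their receptor, varied by less than 0.1 over the 6 arrays. Rspo3, the R-spondin known from vascular development in the mouse, had 3.01, 3.09 and 2.70 in double-positive cells and 2.70, 2.72 and 2.72 in CD31+ cells. Of the ubiquitin ligases, Znrf3 had 2.46 to 2.53 in double-positive cells and 2.39 to 2.46 in CD31+ cells, and Rnf43 was at the floor on 5 arrays and at 3.07 on the first CD31+ array.

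The 5 intracellular genes also gave no call. Tcf7l1, a DNA-binding factor that mostly represses Wnt targets, had 6.75, 6.33 and 6.78 in double-positive cells and 6.33, 6.89 and 6.72 in CD31+ cells. The values were mixed, with means of 6.62 ± 0.25 in double-positive cells and 6.65 ± 0.29 in CD31+ cells (SD, n = 3 each). The difference of -0.03 had a 95% interval of -0.60 to 0.54 (limma adjusted p = 1 over all probe sets, 0.941 with the filter), and its other probe set gave 0.07. Axin1, the scaffold of the destruction complex, had 4.81, 5.03 and 5.19 in double-positive cells and 4.83, 4.81 and 4.81 in CD31+ cells. Its difference was 0.19 (95% interval -0.09 to 0.47, limma adjusted p = 0.659) and -0.49 after centring.

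Tcf7l2, a factor that activates targets together with β-catenin, reached 5 on 1 array. It had 5.36, 4.11 and 4.66 in double-positive cells and 4.08, 4.10 and 3.10 in CD31+ cells, a difference of 0.95 (95% interval -0.32 to 2.21, limma adjusted p = 0.659). The groups met almost at 4.11 and 4.10. Axin2, a widely used transcriptional readout of β-catenin signaling, was at 2.48 on all 6 arrays, and Lef1 stayed between 2.40 and 2.42. At these levels no difference can be seen on the arrays.

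**Figure D4:**
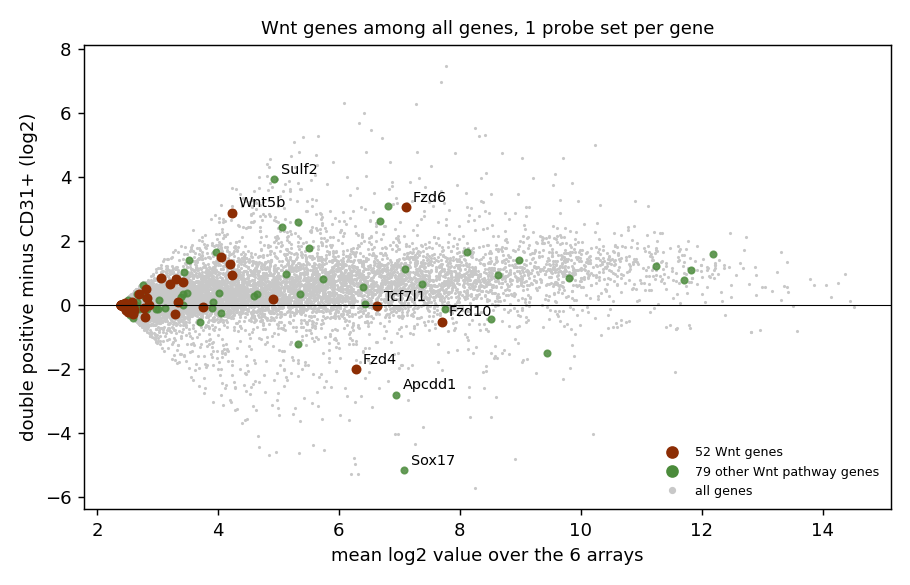
Mean log2 value over the 6 arrays (horizontal axis) against the difference, double positive minus CD31+ (vertical axis, log2), with 1 probe set per gene. Gray points are all genes, green points 79 other Wnt pathway genes and dark red points the 52 Wnt genes, most of which lie at the left end near the floor.

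Other genes of the pathway were read from a list of 80, of which 79 were measured. limma over all probe sets called 1 higher (Sulf2) and 2 lower (Apcdd1 and Sox17), where 0.879% of all genes were called higher and 0.176% lower. The list was chosen with earlier results of these data known. Its median difference was 0.02. With the replicate block 0 were called over all probe sets. The filter kept 27, of which 11 were called higher and 3 lower, where 33.2% and 4.11% of all genes kept were called. When the arrays were also centred 7 were higher and 4 lower, against 12.6% and 9.63% of the genes kept. With the filter and the block 17 were higher and 4 lower, against 46.4% and 4.99%.

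Sulf2 encodes an enzyme at the cell surface that removes sulfate from heparan sulfate, to which Wnts bind. Its probe set 1447602_x_at had 7.08, 6.42 and 7.20 in double-positive cells, against 3.28, 2.80 and 2.81 in CD31+ cells. The difference was 3.94 or 15.3-fold (standard error 0.277, limma adjusted p = 0.0309). The groups were more than 3 apart on the log2 scale. With the block the adjusted p was 0.180, and the call held in 1 of the 6 fits that left out an array (0.0442 to 0.138). Its other probe sets differed by 0.36 and 0.07. Wls, the carrier that takes Wnts to the cell surface, had 5.10, 4.35 and 4.91 in double-positive cells, against 3.12, 3.18 and 3.13 in CD31+ cells, and was picked out after its values were seen. Its difference was 1.64 (limma adjusted p = 0.0855), and the others of its 4 probe sets differed by 1.69, 0.28 and -0.10.

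Apcdd1 encodes a membrane protein that inhibits Wnt signaling. Its probe set 1454822_x_at had 5.47, 5.60 and 5.57 in double-positive cells, against 8.50, 8.38 and 8.19 in CD31+ cells. The replicates of each group lay close together. The difference was -2.81, or 7.01-fold lower (standard error 0.0942, limma adjusted p = 0.0111). The call held with each array left out (0.0189 to 0.0464) and with the filter (0.000121), but not with the block over all probe sets (0.155). Of its 5 other probe sets, 1449070_x_at differed by -1.38 (limma adjusted p = 0.577) and the others by -0.63 to 0.00.

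Sox17 encodes a transcription factor of arterial endothelium that can bind β-catenin, and is also on the list of blood endothelial markers. Its probe set 1429177_x_at had 4.77, 4.54 and 4.18 in double-positive cells, against 9.69, 10.48 and 8.83 in CD31+ cells. The difference was -5.17, or 35.9-fold lower (standard error 0.485, limma adjusted p = 0.0480). With 1 array left out the adjusted p was 0.0647 to 0.193 and with the block 0.198, against 7e-05 with the filter. A second probe set differed by -0.32. The probe sets read for Sulf2, Apcdd1 and Sox17 end in _x_at, as that of Wnt5b does, so they can share probes with other transcripts.

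Genes of planar polarity and some targets passed with the filter on dim probe sets but not in the fit over all probe sets. Celsr1, a cadherin of planar polarity, had 6.35, 6.87 and 6.65 in double-positive cells, against 3.79, 4.59 and 3.72 in CD31+ cells. Its difference was 2.59 (limma adjusted p = 0.0686 over all probe sets, 0.00063 with the filter). Daam1, a formin downstream of Dishevelled, differed by 1.77 (limma adjusted p = 0.053 over all probe sets, 0.00207 with the filter), and its other probe sets by 0.76 and 0.00. Of the 4 planar polarity genes that passed the filter, Celsr1, Daam1 and Prickle1 were called higher and Prickle2 lower (-1.21, limma adjusted p = 0.0383). Of all genes kept, 33.2% were called higher and 4.11% lower. Celsr1, Daam1 and Prickle1 passed the filter only through the double-positive arrays. Prickle2 reached 5 on 4 arrays, and its double-positive arrays alone would not have met the filter. Prickle1, at 0.97, no longer passed when the arrays were also centred (limma adjusted p = 0.520). Vangl2, another core gene of this branch, stayed between 2.81 and 3.15 on all arrays.

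Of the receptors outside the Frizzled family, Reck, which works with Adgra2 in the response of brain endothelium to Wnt7, had 8.92, 7.80 and 8.34 in double-positive cells, against 6.06, 4.90 and 4.82 in CD31+ cells. Its difference was 3.09 (limma adjusted p = 0.125 over all probe sets, 0.000918 with the filter). Adgra2 had means of 3.07 in double-positive cells and 2.46 in CD31+ cells, and Wnt7a and Wnt7b stayed below 3. Of 8 genes known as Wnt targets in some tissue, 4 passed the filter and 3 of them were called higher with it, where 33.2% of all genes kept were. Nfatc1, a factor of valve formation, had 6.32, 6.27 and 6.23 in double-positive cells, against 3.49, 4.38 and 3.68 in CD31+ cells, a difference of 2.43 (limma adjusted p = 0.000645 with the filter). The other probe sets of Nfatc1 differed by 0.03 to 1.02. Myc, a growth regulator, had 8.40, 8.47 and 7.12 in double-positive cells, against 6.03, 5.20 and 4.84 in CD31+ cells, a difference of 2.64 (limma adjusted p = 0.00301 with the filter). Id2, an inhibitor of basic helix-loop-helix factors, differed by 1.39 (0.00859 with the filter and 0.0926 when the arrays were also centred). Sulf2 and Nfatc1 also passed the filter only through the double-positive arrays, and Sox17 only through the CD31+ arrays. Reck reached 5 on 4 arrays and Myc on 5, and for both the CD31+ arrays alone would not have met the filter. The targets Sp5 and Sox9 were below 3 on all arrays, as Axin2 was.

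**Figure D5:**
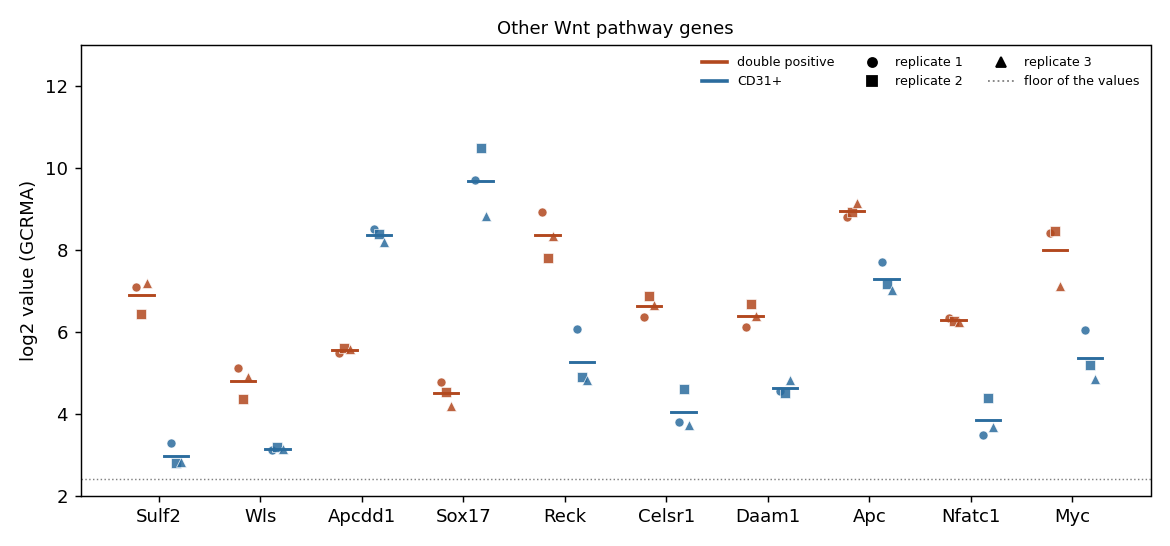
Log2 GCRMA values (vertical axis) of 10 other Wnt pathway genes, with double-positive arrays in orange on the left and CD31+ arrays in blue on the right of each pair. Points are single arrays, bars are means of 3 and the dotted line is the floor. The groups do not overlap for any of the 10, with CD31+ arrays on top for Apcdd1 and Sox17 and double-positive arrays on top for the others. These 10 either passed the fit over all probe sets or were picked after their values were seen. Of all genes, 16.9% were higher and 3.42% lower without overlap of the groups.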

How the data were processed

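RNA of sorted LN endothelial cells was measured on 6 GeneChip arrays. The authors amplified the RNA in 2 rounds and normalized the arrays with GCRMA, so the deposited values are relative log2 abundances, 1 per probe set and array, in 1 table of the whole series. Versions of GCRMA and limma and the genome build are not given in the sources used here. Raw intensities were not used.

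Of 45101 probe sets, 64 were controls. Of the other 45037, 34945 had 1 gene in the platform table, 932 several and 9160 none. RefSeq (GRCm38.p6) matched 34741 by gene ID, including the 52 Wnt genes, and holds the promoter windows shown. For each gene the probe set with the highest mean was used.

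limma 3.58.1 in R 4.3.3 (lmFit, eBayes, default settings) was run on all 45037 probe sets with no filter or block, and p-values were adjusted by Benjamini-Hochberg at 5% FDR. It was tested on simulated data. There were 4 residual degrees of freedom, with 0.356 prior ones in the unfiltered fit and 4.92 in the fit on the 6088 probe sets that the filter kept. The floor was 2.39, and 37.4% of probe sets lay within 0.1 of it on all arrays. Pairing was checked over the 5764 probe sets whose mean reached 5: deviations from the group means correlated at 0.341, 0.475 and 0.418 for same-numbered arrays and at -0.405 to 0.0566 for others, and the design text calls the samples paired. Replicates are labelled biological, and p-values measure the spread between them.

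The Wnt genes, the other pathway genes and the marker lists were chosen with earlier results of these data known. Wnt genes were described with each array if either group's mean reached 5 or if they passed over all probe sets or with the filter. Other pathway genes were named if they passed over all probe sets, and others named were picked after their values were seen. Alternatives were the block, the filter, centring, eBayes with trend and robust, probe sets averaged, 1 probe set per gene in the fit, other probe sets, and each array left out. After the data were seen, leaving out arrays with the filter was added, as was leaving out both arrays numbered 2. In these fits the filter stayed as set on all 6 arrays. Tcf7, Kremen2, Ccl19 and Lck were not analysed here. Plots used matplotlib 3.10.9 under Python 3.11.15.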

Additional observations from a re-analysis of the deposited data

How the results depend on the processing

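The differences of Wnt5b, Fzd6 and Fzd4 kept their direction with centring, averaging of probe sets, and each array or both arrays numbered 2 left out. The probe set 1449416_at of Fzd4 gave 0.0088. The block and the filter cannot change a difference between the group means, so they are no check of direction. Their calls differed between the fits over all probe sets and with the filter, which tested 6088 in place of 45037 probe sets and had 4.92 in place of 0.356 prior degrees of freedom. The floor limits what can be seen of the other genes, since 29 of the 52 stayed below 3.

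Of the Wnt genes, 1 was called higher and 0 lower over all probe sets. The numbers were 0 and 0 with the replicate block, 2 and 1 with the filter (alone, with the block or with centring), 2 higher with 1 probe set per gene in the fit, and 1 lower with probe sets averaged. With 1 array left out 0 were higher, from 0 to 0 over the 6 fits, and without both arrays numbered 2 also 0. With the filter, 2 were higher and 1 lower in each fit that left out 1 array and without both arrays numbered 2. The filter was set once on all 6 arrays and not again in these fits. Wnt5b reached 5 on 3 arrays, all double positive, and would not have met a filter set anew without any of them. Centring over all probe sets gave 4 higher and 39 lower, since it also moves the values at the floor apart.

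Of all genes, 160 were called higher and 32 lower. The block gave 2 and 0, the filter 1398 and 173, the filter with the block 1950 and 210, the filter with centring 530 and 405, centring alone 1310 and 12217, averaging 407 and 83, and 1 probe set per gene 402 and 76. With 1 array left out 31 to 66 were higher and 4 to 34 lower (4 to 7 where it was a double-positive array), and 16 and 6 without both arrays numbered 2. With the filter these were 619 to 1543 higher and 133 to 191 lower, and 1109 and 132.

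Of the other pathway genes, 1 was called higher and 2 lower. The block gave 0 and 0, the filter 11 higher, the filter with the block 17 and 4, the filter with centring 7 and 4, centring alone 11 and 46, averaging 6 and 1, and 1 probe set per gene 6 higher. With 1 array left out 0 to 2 were higher and 1 to 1 lower, and 0 and 0 without both arrays numbered 2. With the filter 8 to 14 were higher with 1 array left out, and 11 without both arrays numbered 2.

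Some small differences changed sign. That of Tcf7l1 was 0.0205 with probe sets averaged, 0.24 without both arrays numbered 2, also with the filter, 0.0707 at 1436207_at, and -0.19 to 0.12 with 1 array left out, with or without the filter. Axin1 was at -0.49 after centring and at -0.0383 at 1426967_at. After centring Fzd7 was at -0.0131 and Dkk3 at -0.19. Wnt8b was between -0.74 and 0.31 with 1 array left out. Over all named genes and settings, 17 of 448 values changed sign, 27 lost a call and 106 gained one. The cause of these changes was not tested.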

Other observations

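Of 25 measured genes of the destruction complex and Dishevelled, 10 passed the filter on dim probe sets, and 3 of these were called higher and 0 lower with it, where 33.2% of all genes kept were called higher. The 15 that did not pass it included Dvl2, at a mean log2 value of 2.40 in both populations, and Dvl3, at 2.41 in both. Fbxw11, which encodes a ubiquitin ligase subunit that recognizes β-catenin, had mean log2 values of 12.98 in double-positive cells and 11.39 in CD31+ cells (limma adjusted p = 0.0122 after the filter on dim probe sets, 0.0909 when the arrays were also centred). Tnks2, which encodes a tankyrase that marks Axin for removal, had 7.64 in double-positive cells and 6.53 in CD31+ cells (0.0284 with the filter, 0.345 when also centred). Apc, the partner of Axin in the destruction complex, had 8.95 in double-positive cells and 7.29 in CD31+ cells (limma adjusted p = 0.00368 with the filter, 0.0327 when also centred). The other probe sets of Apc differed by 1.54, 0.37 and 0.00. Apc2, a relative of Apc, had 8.69 in double-positive cells and 10.18 in CD31+ cells, a difference of -1.49 (0.157 with the filter, 0.00592 with the filter and the block). Ctnnb1, which encodes β-catenin, had 12.10 in double-positive cells and 11.32 in CD31+ cells, a difference of 0.78 (0.0864 with the filter, 0.0416 with the filter and the replicate block). After centring the difference of Ctnnb1 was 0.10, so its size depended on the scaling of the arrays.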
